A study of Mus musculus with 24 samples.

Results

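Repair of cisplatin damage in the mouse kidney was compared between lights off and lights on. The lights-off group held 2 kidney libraries from zeitgeber time (ZT, hours after lights on) 12 and the lights-on group held 2 kidney libraries from ZT0, which made 4 of the 24 libraries of the series. They were picked by tissue and time from the labels, but the comparison itself was chosen with earlier results of these data known. The other libraries were 8 of kidney at ZT4, ZT8, ZT16 and ZT20, which shared in the estimate of the spread, and 12 of liver at the same 6 times with 2 libraries each. All groups were female C57BL/6J mice, labelled wild type, 6 months old and housed with 12 h of light and 12 h of dark. All received 10 mg/kg of cisplatin intraperitoneally and gave tissue 2 h later, so no group was free of the drug. The assay was XR-seq, in which the short oligomers that excision repair cuts out of damaged DNA are captured and sequenced, so that a read marks a place where repair was under way. Nothing in the labels tells if the 2 libraries of 1 time are from different mice, and the p-values below therefore measure the spread between libraries, which may be technical.

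Cisplatin forms adducts on DNA that block RNA polymerase. Nucleotide excision repair removes them by a route coupled to transcription, which acts where a polymerase stalls on the transcribed strand (TS), and by a global route, which surveys both strands, so that TS reads of a gene carry a record of its transcription and non-transcribed strand (NTS) reads mostly do not. In the circadian clock, a dimer of BMAL1 (gene Arntl) with CLOCK or NPAS2 binds E-boxes and switches on the Per, Cry, Rev-erb (Nr1d) and D-box factor genes. The PER and CRY proteins then repress that dimer, while the ROR and REV-ERB receptors act in opposite ways on Arntl and Npas2.

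The ZT12 libraries held 24236776 and 16513334 TS reads, against 13854028 and 15414791 in the ZT0 libraries, within a range of 6334958 to 24236776 over all 12 kidney libraries. Values are given as CPM, the reads of a gene relative to the TS reads of its library on the TMM scale, and as log2 differences, ZT12 minus ZT0, with a standard error. The kidney label was checked on tissue markers. Lrp2, the endocytic receptor of the proximal tubule, had 172 to 221 CPM in kidney libraries and 4.5 to 13.8 CPM in liver libraries, and Slc12a1, the salt carrier of the loop of Henle, had 28.0 to 41.2 CPM in kidney libraries and 1.10 to 2.26 CPM in liver libraries. Albumin, the main protein of hepatocytes, had 2.30 to 7.06 CPM in kidney libraries and 17.7 to 36.0 CPM in liver libraries. The libraries of a time differed from each other by more than sampling, with a chi-square per gene of 6.33 at ZT12 and 16.4 at ZT0, where sampling alone gives 1.

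The genes that differed between lights off and lights on in the kidney were led by the clock. Npas2 and Arntl had the lowest TS repair at ZT12 relative to ZT0, and the D-box factor gene Dbp, the clock repressor genes Ciart and Per3, and Thbs4 were among those with the largest rises. Of 19277 gene entries tested on the TS, 87 passed an adjusted p of 0.05, which is 0.451% of them. Of these 41 were higher at ZT12 (0.213%) and 46 were lower (0.239%), with Tunar and Pvt1 counted under 2 entries each. At an unadjusted p of 0.05, 1882 entries (9.76%) passed.

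Among the entries that passed the test, differences were larger upward than downward. This describes entries selected by that test, and the sizes were not tested against each other. The median difference was 0.82 on the log2 scale among those higher at ZT12 and -0.54 among those lower, against -0.01 over all entries tested. A log2 difference of at least 1 was reached by 15 of the higher entries and 2 of the lower ones. The higher entries had a median length of 25.5 kb and the lower ones 108 kb, against 20.9 kb for all tested. With a trend along gene length removed, 134 entries passed, 61 higher and 73 lower, and they included all 87. All 87 had CPM values that did not overlap between the ZT12 and ZT0 libraries, as had 4935 of the entries tested (25.6%). Because the tissue was sampled whole, fewer cells that repair a gene and less repair per cell cannot be told apart in any of these values.

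**Figure D1:**
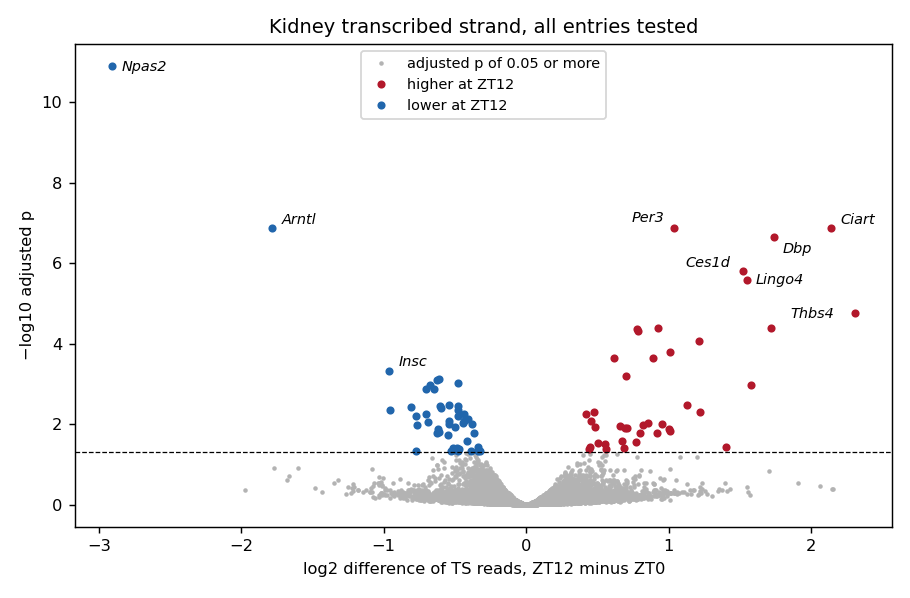
Log2 difference of kidney TS reads, ZT12 minus ZT0 (horizontal axis), against -log10 of the adjusted p (vertical axis) for all entries tested, with the dashed line at an adjusted p of 0.05. The 41 higher entries (red) spread further from 0 than the 46 lower entries (blue), of which Npas2 at -2.91 and Arntl at -1.78 lie apart from the rest.

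The positive arm of the clock split into genes that fell steeply and genes that did not pass the test. Npas2 (chr1:39194272-39363240, plus strand, mm10), which encodes the alternative partner of BMAL1, had 35.8 and 33.2 CPM at ZT12, against 274 and 245 CPM at ZT0. Both ZT12 libraries lay far below both ZT0 libraries. The difference was -2.91 ± 0.10, a 7.5-fold lower TS repair at ZT12 (adjusted p = 1.23e-11). Arntl (chr7:113207465-113314126, plus strand) had 134 and 85.8 CPM at ZT12, against 380 and 368 CPM at ZT0. Its ZT12 libraries differed from each other more than its ZT0 libraries did, yet both stayed well below them, and the difference was -1.78 ± 0.12 (adjusted p = 1.29e-07). Clock, which encodes the other partner of BMAL1, had 144 and 128 CPM at ZT12, against 153 and 150 CPM at ZT0 (-0.16 ± 0.07, adjusted p = 0.438). For Arntl2, a paralogue of Arntl, the difference was -0.08 (adjusted p = 0.865).

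The REV-ERB receptors repress Arntl and Npas2 through response elements that they share with the RORs, and neither of their genes passed. Nr1d1 had 59.0 and 69.4 CPM at ZT12, against 68.1 and 52.7 CPM at ZT0 (0.10 ± 0.11, adjusted p = 0.836), so its groups overlapped. Nr1d2 had 89.4 and 91.6 CPM at ZT12, against 77.2 and 72.9 CPM at ZT0 (0.27, adjusted p = 0.153), without overlap. Rora (0.15, adjusted p = 0.586) and Rorb (0.05, adjusted p = 0.965), which encode ROR receptors, did not pass either.

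Among the PER and CRY repressor genes, 3 of 5 rose, with a median difference of 0.55 over the 5. Per3 (chr4:151003655-151044665, minus strand), the least studied of the Period genes, had 140 and 140 CPM at ZT12, against 67.9 and 68.5 CPM at ZT0. The libraries of each time agreed closely, and the difference of 1.04 ± 0.07 was a 2.06-fold rise (adjusted p = 1.29e-07). Per2, whose product carries CRY into the repressive complex, had 270 and 284 CPM at ZT12, against 147 and 176 CPM at ZT0 (0.78 ± 0.08, adjusted p = 4.23e-05). Cry2 (chr2:92403647-92434069, minus strand) had 183 and 200 CPM at ZT12, against 141 and 135 CPM at ZT0. Its groups did not overlap and it rose by 0.48 ± 0.08 (adjusted p = 0.00491), a call that was lost without ZT12 replicate 2 (adjusted p = 0.122). Per1 had 103 and 123 CPM at ZT12, against 127 and 105 CPM at ZT0, and its difference of -0.03 ± 0.10 did not pass (adjusted p = 0.961). Cry1, the stronger repressor of the CRY pair, had 122 and 117 CPM at ZT12, against 62.1 and 104 CPM at ZT0. The ZT0 libraries lay apart from each other but below both ZT12 libraries, and the difference of 0.55 ± 0.13 missed the threshold (adjusted p = 0.0822). It passed under 4 of the alternatives, among them the fit without ZT0 replicate 2.

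The D-box factors DBP, TEF and HLF are activators that pass the rhythm on to output genes, and NFIL3 represses through the same element. All 3 activator genes rose. Dbp (chr7:45705247-45710203, plus strand) had 31.6 and 35.1 CPM at ZT12, against 11.1 and 8.99 CPM at ZT0. Its groups lay far apart, with a 3.33-fold rise of 1.74 ± 0.12 on the log2 scale (adjusted p = 2.16e-07). It overlaps Sphk2 on the opposite strand, so reads in the shared stretch could not be assigned with certainty. Tef had 113 and 113 CPM at ZT12, against 80.8 and 59.4 CPM at ZT0 (0.70 ± 0.09, adjusted p = 0.000611). Hlf had 182 and 177 CPM at ZT12, against 142 and 126 CPM at ZT0 (0.42 ± 0.07, adjusted p = 0.00560), and this call was lost without ZT12 replicate 2 (adjusted p = 0.111). Nfil3 had 59.8 and 67.6 CPM at ZT12, against 71.6 and 80.0 CPM at ZT0, and its difference of -0.25 did not pass (adjusted p = 0.228).

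Of 7 measured E-box targets and clock kinases, 2 rose. Ciart (chr3:95878505-95882228, minus strand), which encodes the repressor CHRONO, had 21.6 and 24.8 CPM at ZT12, against 4.28 and 6.19 CPM at ZT0. Both ZT12 libraries were several times above both ZT0 libraries, a 4.41-fold rise of 2.14 ± 0.15 (adjusted p = 1.29e-07). It overlaps C920021L13Rik on the opposite strand. Bhlhe41, which encodes the E-box repressor DEC2, had 18.1 and 20.7 CPM at ZT12, against 12.9 and 13.6 CPM at ZT0 (0.55 ± 0.11, adjusted p = 0.0314). This call held in only 3 of the 12 fits that left out a library. Usp2, a deubiquitinase of clock proteins, had 173 and 203 CPM at ZT12, against 166 and 161 CPM at ZT0 (0.20, adjusted p = 0.426). Bhlhe40 (-0.09), Csnk1d (0.08), Csnk1e (-0.04) and Fbxl21 (-0.01) had adjusted p-values of 0.786 or more. Over the 6 clock lists together 24 genes were tested, and 8 rose and 2 fell, which is 40.0% of their entries against 0.451% of all entries. The lists were drawn up with earlier results of these data known.

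**Figure D2:**
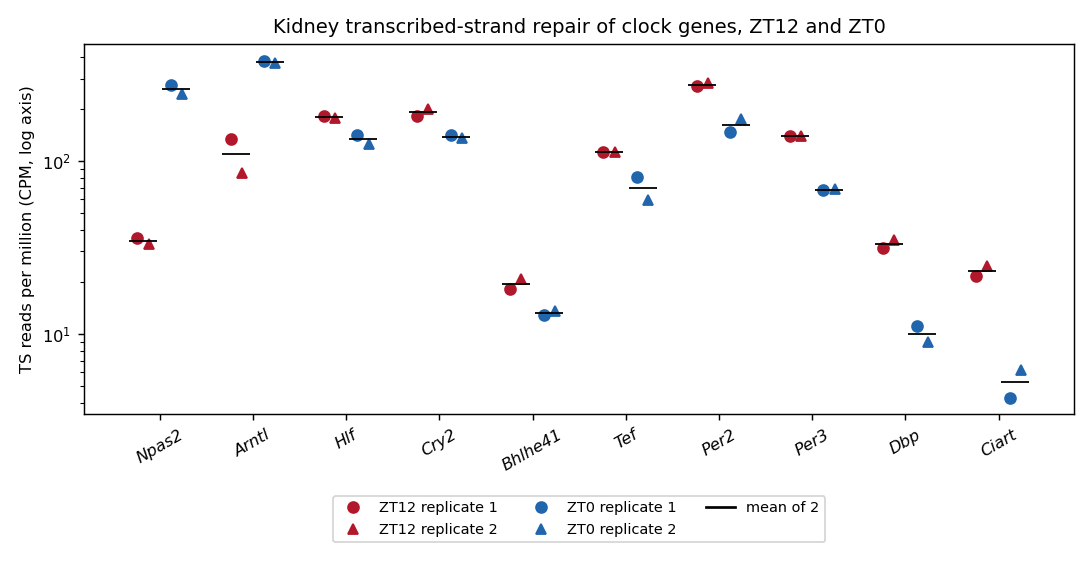
TS level in CPM (log axis) of the 10 clock genes called between ZT12 and ZT0 in kidney, with ZT12 libraries in red left of ZT0 libraries in blue, circles for replicate 1, triangles for replicate 2 and bars for the mean of 2. No gene has overlapping groups, and Arntl at ZT12 has the widest gap between its replicates among the ZT12 groups shown, 134 and 85.8 CPM.

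Promoters of the called clock genes are printed because clock factors can act through short elements near start sites. RefSeq sequences of GRCm38.p6 were matched for 9 of the 10 genes, each of 300 bases with 250 before and 50 after the start, and Per2 is named only. Capitals mark the E-box CACGTG, the D-box letters TTATGTAA, TTATGCAA or TTACGTAA, and the ROR and REV-ERB half-site letters TAGGTCA or TGGGTCA, searched on both strands, and no 2 different motifs overlapped. Shown in order are Npas2 (chr1:39194022-39194321, plus strand), Arntl (chr7:113207261-113207560, plus), Per3 (chr4:151044616-151044915, minus), Dbp (chr7:45704997-45705296, plus), Tef (chr15:81802423-81802722, plus), Ciart (chr3:95882179-95882478, minus) and Bhlhe41 (chr6:145865371-145865670, minus).
Npas2: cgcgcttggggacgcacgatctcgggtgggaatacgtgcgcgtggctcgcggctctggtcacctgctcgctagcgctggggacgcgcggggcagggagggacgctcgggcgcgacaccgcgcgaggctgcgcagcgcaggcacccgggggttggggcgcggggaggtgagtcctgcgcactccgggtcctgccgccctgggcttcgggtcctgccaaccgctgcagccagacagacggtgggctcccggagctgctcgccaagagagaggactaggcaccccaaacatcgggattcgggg
Arntl, the start further downstream: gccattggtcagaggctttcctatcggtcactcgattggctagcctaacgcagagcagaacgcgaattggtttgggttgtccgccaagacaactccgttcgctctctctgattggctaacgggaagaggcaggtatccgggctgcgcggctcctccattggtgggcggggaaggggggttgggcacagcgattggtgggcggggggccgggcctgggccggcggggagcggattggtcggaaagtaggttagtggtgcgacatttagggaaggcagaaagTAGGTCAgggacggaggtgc
Per3: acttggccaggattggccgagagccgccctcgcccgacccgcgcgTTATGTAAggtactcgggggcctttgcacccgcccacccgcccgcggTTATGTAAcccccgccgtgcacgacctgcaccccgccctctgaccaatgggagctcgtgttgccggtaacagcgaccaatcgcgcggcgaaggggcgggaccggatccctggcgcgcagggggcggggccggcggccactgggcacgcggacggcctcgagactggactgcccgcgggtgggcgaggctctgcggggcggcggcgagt
Dbp: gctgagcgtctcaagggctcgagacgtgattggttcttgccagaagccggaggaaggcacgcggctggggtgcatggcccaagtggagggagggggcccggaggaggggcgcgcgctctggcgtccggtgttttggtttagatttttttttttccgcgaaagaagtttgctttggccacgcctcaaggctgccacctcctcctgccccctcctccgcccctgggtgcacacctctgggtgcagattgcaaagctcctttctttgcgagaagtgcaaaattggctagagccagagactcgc
Tef, the start further upstream: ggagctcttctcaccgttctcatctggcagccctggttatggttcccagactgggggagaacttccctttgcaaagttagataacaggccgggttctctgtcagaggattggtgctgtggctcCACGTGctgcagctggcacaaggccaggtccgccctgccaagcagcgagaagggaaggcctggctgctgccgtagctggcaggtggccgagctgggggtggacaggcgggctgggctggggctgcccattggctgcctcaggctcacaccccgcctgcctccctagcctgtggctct
Ciart: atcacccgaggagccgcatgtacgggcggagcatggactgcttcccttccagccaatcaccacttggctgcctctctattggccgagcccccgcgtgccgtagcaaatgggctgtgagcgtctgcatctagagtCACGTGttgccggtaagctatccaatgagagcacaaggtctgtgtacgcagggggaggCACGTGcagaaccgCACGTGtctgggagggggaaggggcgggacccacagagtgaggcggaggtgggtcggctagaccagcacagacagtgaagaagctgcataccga
Bhlhe41: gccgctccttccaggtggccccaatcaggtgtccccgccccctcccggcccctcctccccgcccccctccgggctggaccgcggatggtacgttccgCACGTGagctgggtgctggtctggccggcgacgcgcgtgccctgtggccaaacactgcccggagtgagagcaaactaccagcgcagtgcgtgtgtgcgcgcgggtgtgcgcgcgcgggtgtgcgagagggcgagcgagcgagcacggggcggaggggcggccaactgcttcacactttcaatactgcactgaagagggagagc

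Ciart held 3 E-boxes, which began 116, 58 and 44 bases before its start. Tef held an E-box at each of its 2 start sites, 127 and 138 bases before them, and Bhlhe41 held an E-box 153 bases before its start. Per3 held a pair of D-boxes, 205 and 158 bases before its start. Arntl held TAGGTCA 30 bases into the transcript at one of its starts. The windows of Npas2, Dbp, Cry2 and Hlf held none of these letters, which says nothing about elements elsewhere. Of 32851 promoters of this length, 7.15% held the E-box, 1.78% a D-box and 6.45% a half-site. A count over all called genes was void, since only 29 of 40 higher and 33 of 45 lower genes had a promoter sequence.

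Apart from Npas2 and Arntl, the entries with the largest drops at ZT12 belonged to no clock list. Insc (chr7:114745766-114850380, plus strand), an adaptor that orients the mitotic spindle, had 22.6 and 18.1 CPM at ZT12, against 45.8 and 34.2 CPM at ZT0. Both times showed a gap between replicates, but the groups did not overlap, and it fell by 0.96 on the log2 scale (SE 0.12, adjusted p = 0.000471). Asxl3, a chromatin regulator, had 18.6 and 12.5 CPM at ZT12, against 35.4 and 25.3 CPM at ZT0 (-0.95 ± 0.15, adjusted p = 0.00442). Micalcl had 18.1 and 15.2 CPM at ZT12, against 26.0 and 33.2 CPM at ZT0 (-0.81, adjusted p = 0.00368). Dcdc2a, a doublecortin domain protein of cilia, had 45.2 and 42.1 CPM at ZT12, against 87.3 and 62.8 CPM at ZT0 (-0.78, adjusted p = 0.00604). In Asxl3 and Dcdc2a, as in Insc, replicate 1 was the higher ZT0 library.

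Mgmt, whose protein reverses alkyl damage on guanine in a single step outside excision repair, had 51.8 and 43.7 CPM at ZT12, against 107 and 58.6 CPM at ZT0. The ZT0 libraries differed widely, and its call (-0.77 ± 0.16, adjusted p = 0.0448) held in only 3 of the 12 fits that left out a library. Adap1, a GTPase-activating protein for ARF6, had 87.9 and 80.1 CPM at ZT12, against 162 and 114 CPM at ZT0 (-0.70 ± 0.10, adjusted p = 0.00130). Loxl4, a lysyl oxidase that cross-links collagen, had 12.7 and 13.8 CPM at ZT12, against 22.7 and 20.3 CPM at ZT0 (-0.70 ± 0.12, adjusted p = 0.00560). Its replicates lay close at both times. Il7, a cytokine for lymphocytes, had 9.89 and 10.6 CPM at ZT12, against 15.1 and 18.2 CPM at ZT0 (-0.69, adjusted p = 0.00862). Ablim3, an actin-binding LIM protein, had 59.8 and 49.3 CPM at ZT12, against 97.5 and 76.9 CPM at ZT0 (-0.67 ± 0.09, adjusted p = 0.00102). D930015M05Rik (chr2:92408892-92432308, plus strand), which lies within Cry2 on the opposite strand, had 11.0 and 11.8 CPM at ZT12, against 19.1 and 19.7 CPM at ZT0 (-0.77 ± 0.14, adjusted p = 0.0103).

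The largest rise of all was that of Thbs4 (chr13:92751586-92794818, minus strand), which encodes a thrombospondin of the extracellular matrix. It had 16.1 and 12.0 CPM at ZT12, against 2.41 and 3.26 CPM at ZT0, a 4.96-fold rise of 2.31 ± 0.22 (adjusted p = 1.71e-05). Lingo4 (chr3:94399219-94404501, plus strand), which encodes a leucine-rich repeat membrane protein, had 19.2 and 17.4 CPM at ZT12, against 6.70 and 5.80 CPM at ZT0, and rose by 1.55 ± 0.13 (adjusted p = 2.62e-06). Ces1d, a carboxylesterase of lipid and drug esters, had 62.1 and 50.7 CPM at ZT12, against 25.0 and 14.9 CPM at ZT0. Its 1.52 ± 0.12 (adjusted p = 1.54e-06) is uncertain as to gene, since near-identical Ces1 copies lie beside it. In each of these 3 genes every ZT12 value was above every ZT0 value.

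Hif3a, an oxygen-regulated transcription factor gene, had 47.3 and 31.4 CPM at ZT12, against 18.2 and 15.6 CPM at ZT0 (1.21 ± 0.13, adjusted p = 8.54e-05). Gm10787 had 20.1 and 18.0 CPM at ZT12, against 4.44 and 7.17 CPM at ZT0 (1.72 ± 0.18, adjusted p = 4.13e-05). Armc12 (1.58), Gm19522 (1.22) and Ctcflos (1.13) were weakly repaired entries that also rose, with 14.6 CPM or less in every library of both times. Psg16, of the pregnancy-specific glycoprotein family, had 11.6 and 4.12 CPM at ZT12, against 2.80 and 2.93 CPM at ZT0 (1.41 ± 0.29, adjusted p = 0.0355). Its second ZT12 library lay close to the ZT0 values, its close paralogues make it uncertain, and the call held in only 4 of the 12 fits that left out a library.

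The other called genes were looked up after their values were seen. Among those lower at ZT12, Col18a1, which encodes type XVIII collagen, had 280 and 277 CPM at ZT12, against 395 and 383 CPM at ZT0 (-0.48 ± 0.07, adjusted p = 0.000915). Col4a1 (-0.38, adjusted p = 0.00998) and Col4a2 (-0.43, adjusted p = 0.00541), which encode type IV collagen and whose entries overlap on opposite strands, fell with Nid2 (-0.61, adjusted p = 0.000736), which encodes a nidogen. The type IV collagen genes Col4a3 (-0.07, adjusted p = 0.860), Col4a4 (-0.07, adjusted p = 0.859), Col4a5 (0.01, adjusted p = 0.989) and Col4a6 (-0.07, adjusted p = 0.913) did not pass, so these genes are named singly and not as a group. Among those higher were Mthfd1l (0.92), a mitochondrial enzyme of folate metabolism, Sult1b1 (0.89), a sulfotransferase, Mfrp (1.01) and Wee1 (0.48), the kinase that holds back mitosis. Summed TS repair of 13 endothelial markers was 401 and 399 CPM at ZT12, against 349 and 355 CPM at ZT0, so it was higher at ZT12 while the called collagen genes were lower, and its part in them was not tested. Of the list 0 members passed in edgeR and 0 in DESeq2, 5 of 13 passed at an unadjusted p of 0.05, and the median difference was 0.20.

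How firmly a call stood varied among the 87. Leaving out any 1 of the 12 kidney libraries, which assumes that a lone library varies like the other groups, kept 25 of them in every fit, among them Ablim3, Armc12, Arntl, Ces1d, Ciart, Col18a1, Ctcflos, Dbp, Dtx4, Gm10787, Hif3a, Insc, Lingo4, Mfrp, Mthfd1l, Nid2, Npas2, Per2, Per3, Shtn1, Sult1b1, Tef, Thbs4 and Zbtb16. The count of calls ran between 44 without ZT12 replicate 1 and 1236 without ZT0 replicate 2. The calls outside those 25 were each lost in at least 1 of those fits. Without the replicate number as a block 21 entries passed, which were the same 25 less Ablim3, Ctcflos, Sult1b1 and Zbtb16 (adjusted p = 0.600), and with the spread estimated over kidney and liver together 18 passed.

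No call fell on genes of excision repair itself, which at a share of 0.451% of all entries says little about a list of this size. Of 30 genes tested from the list of 31, 0 passed the adjusted threshold in edgeR, 0 in DESeq2 and 1 at an unadjusted p of 0.05, with a median difference of -0.01 and a range of -0.24 to 0.17. Xpc, the damage sensor of the global route, had 97.7 and 85.9 CPM at ZT12, against 94.5 and 83.8 CPM at ZT0 (0.04 ± 0.08, adjusted p = 0.906). Ercc6, which encodes the coupling factor CSB, had 180 and 166 CPM at ZT12, against 158 and 178 CPM at ZT0 (0.04 ± 0.08, adjusted p = 0.916). Xpa, which verifies the damage, had 73.8 and 71.1 CPM at ZT12, against 68.4 and 74.6 CPM at ZT0 (0.02 ± 0.08, adjusted p = 0.974). The groups overlapped in all 3 genes. Ercc1, a subunit of the 5′ nuclease, had 44.3 and 48.0 CPM at ZT12, against 55.0 and 54.1 CPM at ZT0, the largest difference of the list at -0.24 ± 0.08 (adjusted p = 0.310).

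Of 20 lists outside the clock with 305 genes tested, 18 had no called gene, among them p53 targets (24 genes), immediate early genes (20), platinum transport and thiol defence (27), cholesterol synthesis (20), and the proximal tubule (21), loop and distal tubule (15) and collecting duct (11) lists. These 18 lists had 0 calls in edgeR and 0 in DESeq2, and 34 of their 291 entries (11.7%) passed at an unadjusted p of 0.05, against 9.76% of all entries. The lists were uneven in this, with 4 of 10 mesenchymal, 3 of 8 podocyte and 6 of 21 proximal tubule entries, and 0 entries of cholesterol synthesis or the collecting duct. Of 13 glucocorticoid targets, 1 passed and 5 (38.5%) did so at an unadjusted p of 0.05, with summed levels of 1465 and 1365 CPM at ZT12, against 1237 and 1117 CPM at ZT0, which did not overlap. The median difference of the list was 0.12, with a range of -0.27 to 0.62. The sum includes the called gene, which had the largest difference. The gene called was Zbtb16, which encodes a zinc finger repressor. It had 548 and 451 CPM at ZT12, against 386 and 272 CPM at ZT0 (0.62 ± 0.07, adjusted p = 0.000226). Of 7 hepatocyte markers Cyp2e1, a cytochrome P450 of solvent metabolism, had 19.3 and 14.1 CPM at ZT12, against 11.6 and 9.06 CPM at ZT0 (0.69 ± 0.13, adjusted p = 0.0126), and without the replicate block it did not pass (adjusted p = 0.843). The summed hepatocyte list had 68.2 and 51.3 CPM at ZT12, against 59.8 and 46.5 CPM at ZT0, which overlapped. Sums of other cell types were 51.1 and 56.4 CPM at ZT12 against 47.1 and 50.3 CPM at ZT0 for immune markers, and 209 and 188 against 198 and 165 CPM for mesenchymal markers. For podocyte markers they were 188 and 202 CPM at ZT12, against 162 and 188 CPM at ZT0. For adrenal markers they were 28.2 and 29.9 CPM at ZT12, against 26.8 and 28.9 CPM at ZT0. No measured marker of these lists was at 0 in all 4 libraries, and the part of these levels in the called genes was not tested.

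The 6 times place the ZT12 and ZT0 values within the day. Npas2 averaged 260, 128, 35.9, 34.5, 80.5 and 261 CPM at ZT0, 4, 8, 12, 16 and 20, and Arntl averaged 374, 298, 93.4, 110, 260 and 405 CPM. Both were thus low at ZT8 and ZT12 and high at ZT20 and ZT0. Ciart averaged 5.24, 9.81, 23.2, 23.2, 15.2 and 6.35 CPM and Dbp 10.0, 19.1, 38.9, 33.3, 19.9 and 14.0 CPM at the same times, with the opposite course. Per3 reached its highest mean at ZT12, with 68.2, 98.0, 133, 140, 120 and 89.3 CPM. Lingo4, with 6.25, 6.04, 9.15, 18.3, 21.6 and 17.9 CPM, stayed high at ZT16 and ZT20. Among the 41 entries higher at ZT12, 26 had their highest mean at ZT12 and 23 their lowest at ZT0. Among the 46 lower entries 33 had their lowest mean at ZT8 and 11 at ZT12, while 22 had their highest at ZT20 and 21 at ZT0. Both sets were selected for a difference between ZT12 and ZT0, so a higher entry could not peak at ZT0 or a lower one at ZT12. These counts thus follow in part from the selection, and no shares over all entries tested are set beside them.

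**Figure D3:**
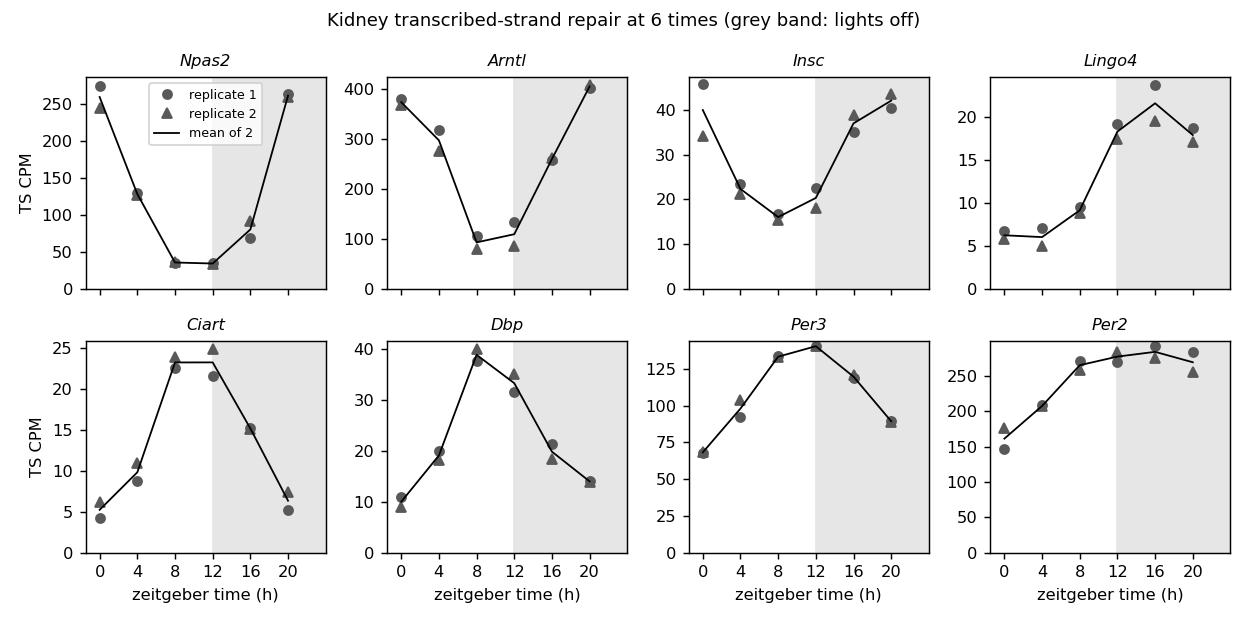
Kidney TS level in CPM at 6 zeitgeber times for 8 called genes, with circles for replicate 1, triangles for replicate 2, a line through the mean of 2 and a grey band from lights off at ZT12. Npas2, Arntl and Insc are lowest at ZT8 or ZT12, Ciart, Dbp and Per3 highest there, and Lingo4 and Per2 are still high at ZT20.

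The contrast ZT8 minus ZT20 uses other libraries of the same kidney series, also 12 h apart, and was fitted in the same model. It called 5178 of 19277 entries (26.9%), 1793 higher (9.30%) and 3385 lower (17.6%), and 39.3% passed at an unadjusted p of 0.05. Of the 87 entries called between ZT12 and ZT0, 63 (72.4%) were also called there, which is 1.22% of the ZT8 and ZT20 calls, and 60 had the same direction. The difference between both contrasts was tested directly and passed for 52 entries (0.270%), 46 higher (0.239%) and 6 lower (0.0311%). At an unadjusted p of 0.05, 3862 entries (20.0%) passed.

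Of the 87 calls, 7 differed between the contrasts, among them Per2, Hlf, Thbs4, D930015M05Rik, Lingo4 and Nrg1, the gene of a growth factor for ERBB receptors. Lingo4 rose by 1.55 in ZT12 minus ZT0 and fell by 0.96 in ZT8 minus ZT20, a difference of 2.51 (adjusted p = 2.12e-06). Per2 rose by 0.78 in ZT12 minus ZT0 and stood at -0.02 in ZT8 minus ZT20 (difference 0.80 ± 0.12, adjusted p = 0.00669). D930015M05Rik fell by 0.77 in ZT12 minus ZT0 and rose by 0.84 in ZT8 minus ZT20 (difference -1.61, adjusted p = 0.00164). Among clock genes not called between ZT12 and ZT0, Nr1d1 rose by 1.60 in ZT8 minus ZT20 (adjusted p = 7.40e-07), and its contrasts differed by -1.5 ± 0.16 (adjusted p = 0.000198). Cry1 fell by 0.92 in ZT8 minus ZT20 (adjusted p = 0.000212), and its contrasts differed by 1.47 (adjusted p = 0.00164). Of the 24 clock genes, 15 were called in ZT8 minus ZT20 and 18 in either contrast. Without ZT12 replicate 1 the test of the difference called 3 entries and without ZT0 replicate 1 it called 2021, and Lingo4 and Nr1d1 passed under all 11 alternatives tried. Without ZT12 replicate 1 the adjusted p was 0.0744 for Per2, Cry1 and Hlf, 0.0599 for D930015M05Rik and 0.213 for Thbs4.

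The NTS was counted in separate tables, with CPM values relative to the NTS reads, so that a CPM on 1 strand is not comparable with a CPM on the other. Of 18932 entries tested, 68 passed (0.359%), 42 higher at ZT12 (0.222%) and 26 lower (0.137%), and 1389 passed at an unadjusted p of 0.05 (7.34%). DESeq2 called 20 and the fit without the replicate block 8. Of the 41 entries called higher on the TS, 30 had an NTS difference above 0, with a median of 0.14. Of the 46 called lower, 40 were below 0 on the NTS, with a median of -0.16. The median over all entries tested on the NTS was -0.003. The clock activators that led the TS did not pass on the NTS. Npas2 had 60.6 and 67.0 CPM at ZT12, against 87.2 and 88.2 CPM at ZT0 (-0.46, adjusted p = 0.0793), and Arntl had 327 and 301 CPM at ZT12, against 260 and 321 CPM at ZT0 (0.11, adjusted p = 0.878). Of the TS calls 10 (11.5%) were also NTS calls, which is 14.7% of the NTS calls, among them Col18a1, Cry2, Ctcflos, D930015M05Rik, Dtx4, Hif3a, Tef, Wee1 and Zbtb16. The 10 moved the same way on both strands except Cry2 and D930015M05Rik, which lie on opposite strands of the same stretch. Tef had 129 and 131 NTS CPM at ZT12, against 84.2 and 80.6 CPM at ZT0 (0.66 ± 0.11, adjusted p = 0.000327). Cry2 had 81.7 and 81.0 NTS CPM at ZT12, against 139 and 129 CPM at ZT0 (-0.72 ± 0.12, adjusted p = 0.000133).

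Several of the leading NTS calls lay beside or across from TS calls. C920021L13Rik, which overlaps Ciart, had 195 and 183 NTS CPM at ZT12, against 53.8 and 64.9 CPM at ZT0 (1.66 ± 0.12, adjusted p = 1.05e-16). Sphk2, a sphingosine kinase gene that overlaps Dbp, had 91.9 and 99.0 NTS CPM at ZT12, against 43.8 and 41.9 CPM at ZT0 (1.15, adjusted p = 1.24e-08). On the TS C920021L13Rik stood at 0.09 and Sphk2 at 0.15, and neither passed. The NTS of both genes is the TS of Ciart and Dbp where they overlap. Uts2, the gene of a urotensin peptide 1.844 kb from Per3, had 94.8 and 68.0 NTS CPM at ZT12, against 36.4 and 30.1 CPM at ZT0 (1.28, adjusted p = 4.91e-09). Btbd10, 1.517 kb from Arntl, had 26.6 and 27.8 NTS CPM at ZT12, against 70.7 and 49.5 CPM at ZT0 (-1.13 ± 0.16, adjusted p = 3.40e-06). C2cd3, a centriole protein gene, had 276 and 304 NTS CPM at ZT12, against 148 and 158 CPM at ZT0 (0.92 ± 0.10, adjusted p = 1.91e-09). None of these 5 genes had overlapping groups.

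Il27ra, which encodes a cytokine receptor subunit and overlaps Palm3, had 37.1 and 26.8 NTS CPM at ZT12, against 66.8 and 54.5 CPM at ZT0 (-0.92, adjusted p = 8.46e-05). Pdcl2 (-0.96), Pax9 (-0.87) and Eno4 (-0.84) completed the 5 largest falls, and Ctcflos (0.89) the 5 largest rises. A gene called on the TS lay on the opposite strand within 20 kb of 11 of the 68 NTS calls (16.2%), as it did for 62 of all entries tested on the NTS (0.327%). All 11 moved in the direction of that neighbour's TS, and 6 of them overlapped it. In a shared stretch the NTS of a gene is the TS of its neighbour, so agreement in these 6 was partly built in. Cry2 and D930015M05Rik are neighbours of each other and are both among the 6. The count of 11 was set up after seeing the data and has no test.

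**Figure D4:**
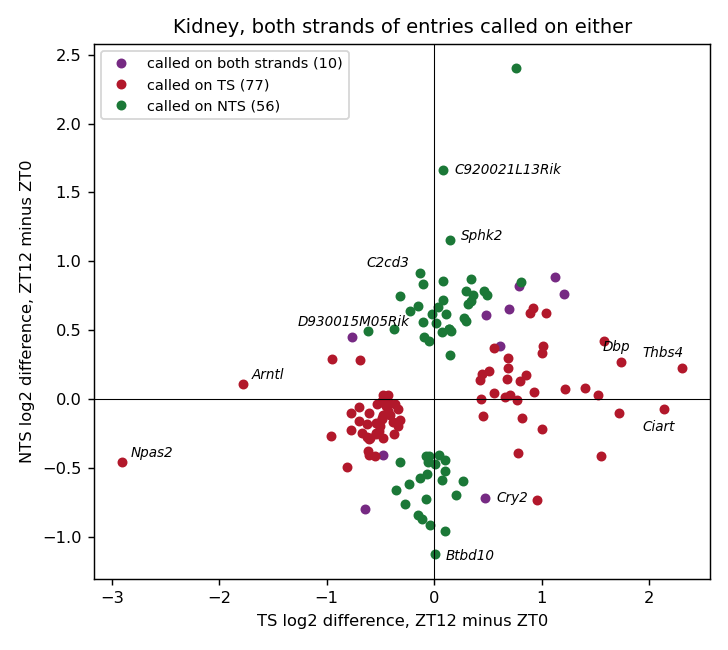
Log2 difference, ZT12 minus ZT0, of kidney TS reads (horizontal axis) against that of NTS reads (vertical axis) for entries called on the TS, the NTS or both and tested on both strands. Most entries were called on 1 strand only, with C920021L13Rik, Sphk2 and Btbd10 near 0 on the TS, Arntl and Ciart near 0 on the NTS, and Cry2 and D930015M05Rik on opposite sides of 0 on the 2 strands.

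The ratio of TS to NTS reads was tested within libraries. It changed for 42 of 20395 entries (0.206%), 16 higher at ZT12 (0.0785%) and 26 lower (0.127%), while 1494 passed at an unadjusted p of 0.05 (7.33%). Without the replicate block 8 passed. Npas2 fell by 2.47 on the log2 scale (SE 0.14, adjusted p = 6.91e-19) and Arntl fell by 1.94 (SE 0.12, adjusted p = 1.06e-17). Ciart rose by 2.17 ± 0.20 (adjusted p = 2.40e-11), Dbp by 1.44 ± 0.17 (adjusted p = 4.65e-08), Cry2 by 1.16 ± 0.14 (adjusted p = 8.39e-08) and Per2 by 1.14 ± 0.13 (adjusted p = 1.16e-08). Outside the clock lists Thbs4 rose by 2.04, Lingo4 by 1.93, Gm10787 by 1.80 and Ces1d by 1.51, and Asxl3 fell by 1.27. C920021L13Rik fell by 1.61 and D930015M05Rik fell by 1.24, which are both opposite a called clock gene. The called ratios comprised 18 TS calls and 18 NTS calls, with 2 entries in both, and 8 that were called on neither.

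Strand preference over all genes was close at both times. Of the reads in genes, the TS held 86.0% and 84.4% at ZT12, against 86.7% and 84.8% at ZT0, means of 85.2% ± 1.09 and 85.7% ± 1.37 (SD, n = 2 each). The groups overlapped, although within each replicate number ZT12 was the lower (differences of -0.716 and -0.318 percentage points). The mean difference of -0.517 percentage points had a two-sided exact permutation p of 0.667 without pairing, where 2 against 2 libraries can reach no less than 0.333.

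In liver, the same contrast called 174 of 18655 entries (0.933%), 79 higher at ZT12 (0.423%) and 95 lower (0.509%), and 13.9% passed at an unadjusted p of 0.05. Of the 87 kidney calls, 23 were called in liver too (26.4% of the kidney calls and 13.2% of the liver calls), all in the same direction. The difference between the tissues was tested over all 24 libraries and passed for 38 of 19702 entries (0.193%), 19 in each direction (0.0964% each), while 9.07% passed at an unadjusted p of 0.05. Of the 38, 4 were kidney calls, namely Npas2, Loxl4, Col18a1 and Bhlhe41. Npas2 fell by 2.91 in kidney and by 5.06 in liver, where it had 13.4 and 13.9 CPM at ZT12, against 427 and 484 CPM at ZT0. Kidney minus liver was 2.16 ± 0.22 (adjusted p = 0.000185), which is a shallower drop in kidney. Arntl, by contrast, fell by 1.78 in kidney and by 1.79 in liver, with 105 and 137 CPM at ZT12, against 416 and 424 CPM at ZT0 in liver. Bhlhe41 rose by 0.55 in kidney and by 2.06 in liver (kidney minus liver -1.49 ± 0.29, adjusted p = 0.0493), a difference that was lost without either ZT12 library of kidney and had an adjusted p of 0.341 without liver ZT12 replicate 1. Dbp rose by 1.74 in kidney and by 2.54 ± 0.30 in liver, and the difference between tissues did not pass (-0.80 ± 0.33, adjusted p = 0.484).

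Loxl4 fell by 0.70 in kidney and by 2.27 in liver, where it had 14.7 and 17.2 CPM at ZT12, against 63.8 and 91.2 CPM at ZT0 (kidney minus liver 1.59 ± 0.22, adjusted p = 0.00509). Col18a1 fell by 0.48 in kidney and stood at 0.25 in liver, where it did not pass (kidney minus liver -0.71 ± 0.11, adjusted p = 0.0140). Insc, which fell by 0.96 in kidney, stood at 0.02 in liver, and Thbs4, which rose by 2.31 in kidney, stood at -0.12. Insc was not among the entries whose tissue difference passed, and for Thbs4 the tissue difference of 2.46 did not pass (adjusted p = 0.129). Usp2 and Nfil3, not called in kidney, differed between tissues by -0.85 (adjusted p = 0.0200) and -0.72 (adjusted p = 0.0194). Mme, the gene of neprilysin, had 64.4 and 48.0 CPM at ZT12 against 47.9 and 47.1 CPM at ZT0 in kidney, and 109 and 110 CPM at ZT12 against 25.7 and 31.9 CPM at ZT0 in liver (-1.67, adjusted p = 0.00991), a difference that was lost without kidney ZT12 replicate 2 (adjusted p = 0.0792). Leaving out 1 of the 8 libraries moved the count of tissue differences between 11, without kidney ZT0 replicate 1, kidney ZT12 replicate 1 or liver ZT12 replicate 1, and 2343, without liver ZT0 replicate 2, and Npas2 and Loxl4 passed under all 11 alternatives tried.

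**Figure D5:**
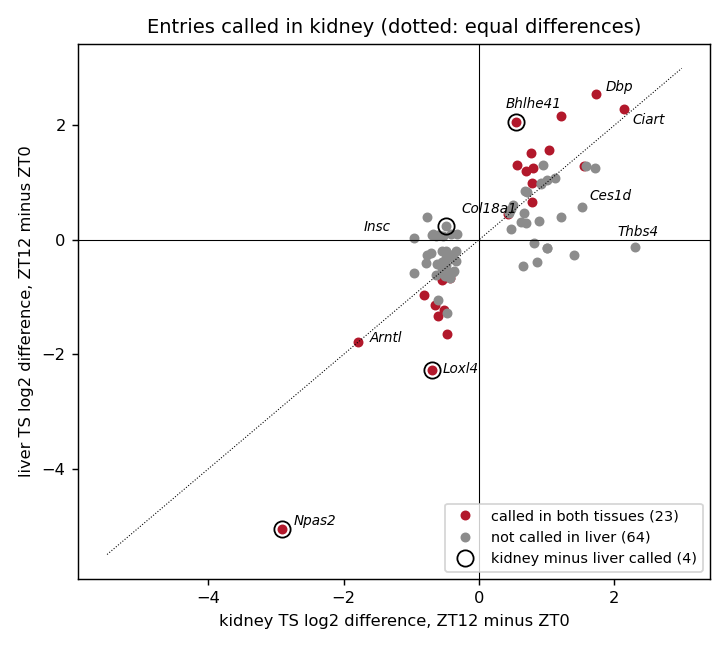
Log2 difference of TS reads, ZT12 minus ZT0, in kidney (horizontal axis) against that in liver (vertical axis) for the 87 entries called in kidney, with red for the 23 called in both tissues, a dotted line of equal differences and black rings for the 4 whose difference between tissues passed. Npas2, Loxl4 and Bhlhe41 lie further from 0 in liver than in kidney, and Thbs4 and Insc lie near 0 in liver but carry no ring.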

How the data were processed

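Counts of XR-seq reads per gene and strand were deposited by the authors as whole numbers, with RPKM values beside them and a separate table for each strand, tissue and replicate number, per the file headers. The deposited RPKM values served only to recover library totals (33716763 and 23625788 reads at ZT12, 18921942 and 21869939 at ZT0). The build is mm10, per the submitters' processing notes. Aligner and counter: not given in the sources used here. Per the labels' protocols, oligomers were precipitated through TFIIH and then with an antibody against a lesion, where the protocol names lesions other than cisplatin adducts. Of 25239 entries, 24203 name 1 symbol, 154 several and 882 none. The last took 2.76% of kidney TS reads and were left out. Entries that overlap another on the opposite strand numbered 3641.

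Counts were tested with edgeR 4.0.16 (glmQLFit, glmQLFTest, TMM, filterByExpr; limma 3.58.1, R 4.3.3) over all 12 kidney libraries, with 1 mean per time and the replicate number as block, and Benjamini-Hochberg adjustment over all entries tested, threshold 0.05. The standard error is the log2 difference divided by the square root of F. Replicate numbers were taken to pair libraries: their deviations from the time means correlated in all 15 pairs of times (r 0.141 to 0.542 over 14791 genes on the TS and 0.246 to 0.434 over 10731 genes on the NTS). The TS/NTS ratio was fitted with 2 columns per library and 1 size for both, and the tissue difference over 24 libraries. Alternatives were DESeq2 1.42.0, RLE scaling, no filter, no block, a spread from 24 libraries, from the 4 alone, a length trend removed (lowess span 0.3), no overlapping entries, the authors' drawn-down counts, and single libraries left out. The drawn-down libraries had totals of 8700000 reads in replicate 1 and 20000000 in replicate 2. The fit was tested on simulated counts with 100 changed genes of each of 2 sizes. The changed genes were drawn from entries above a minimum of mean reads, and no effect of the replicate number was simulated. The rates therefore need not hold for weaker entries or for these libraries. The fit recovered 64% of log2 differences of 0.5 and 89% of those of 1. Of its calls at the threshold of 0.05, 7.83% were false.

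Named genes are the 12 largest called differences each way with a mean of at least 20 TS reads, all clock and excision repair genes measured, up to 4 called genes of each other list, the 5 largest each way for the NTS and the ratio and the 6 largest each way between tissues. Others are said to be chosen after seeing values, and a few genes are not reported here. The comparison, the 26 lists and the tests were chosen with earlier results of these data known. The 18 lists without a call include those not named above (heat shock, fatty acid synthesis, fasting, kidney transcription factors and adipocyte markers).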

Additional observations from a re-analysis of the deposited data

Results flagged for a closer look

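The difference ZT12 minus ZT0 was not the same in kidney and liver for 13 named genes, by the test of the tissue difference itself (edgeR, kidney minus liver on the log2 scale). The kidney value was the higher one for 3930402G23Rik (2.32), Npas2 (2.16), Gm15348 (1.88), Npnt (1.82), Phospho1 (1.70) and Loxl4 (1.59). It was the lower one for Aqp4 (-1.70), Mme (-1.67), Fcamr (-1.61), Prr15 (-1.60), Bhlhe41 (-1.49), Usp2 (-0.85) and Nfil3 (-0.72). Npnt, the gene of the matrix protein nephronectin, had 121 and 102 CPM at ZT12 against 137 and 136 CPM at ZT0 in kidney, and 4.10 and 6.55 CPM at ZT12 against 16.9 and 29.3 CPM at ZT0 in liver. Aqp4, a water channel gene, had 4.07 and 3.70 CPM at ZT12 against 3.43 and 3.06 CPM at ZT0 in kidney, and 3.26 and 5.40 CPM at ZT12 against 0.756 and 1.42 CPM at ZT0 in liver, so that its values rest on few reads. The causes were not tested.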

How the results depend on the processing

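The 87 TS calls became 18 with the spread from 24 libraries, 134 with the length trend removed and 145 without the filter. Without overlapping entries 55 passed, all of them among the 87, and that fit tested fewer entries. On the drawn-down counts, which keep overlap regions in a separate class, 52 passed. The count stayed within 1.5 times with DESeq2 (80), RLE scaling (81) and the 4 libraries alone (97). NTS calls (68) became 20 with DESeq2 and 113 without the filter, and ratio calls (42) became 68 without the filter. Without the replicate block, TS calls were 21, NTS calls 8, ratio calls 8, tissue differences 20 (against 38) and differences from ZT8 minus ZT20 3 (against 52). Leaving out 1 library gave 44 to 1236 TS calls, 21 to 306 NTS calls, 23 to 594 ratio calls, 11 to 2343 tissue differences and 3 to 2021 differences from ZT8 minus ZT20. The highest counts came without a ZT0 library each time. The TS share differed by -1.49 to 0.452 points, and it turned positive without ZT12 replicate 2 (0.253) and without ZT0 replicate 1 (0.452). As a mean within replicate numbers (the replicate block, added after seeing the data) it was -0.517. For single named genes 1723 alternative values kept their side of the threshold, 185 called values lost it and 5 uncalled ones gained it, 4 of them for Cry1 (adjusted p = 0.0299 with the length trend removed, 0.00336 without the filter, 0.0027 in the 4 libraries alone). None of the called ones changed direction. The causes were not tested. Depth limits the weak entries: 2 libraries per time and a few CPM leave standard errors of 0.2 or more, as for Thbs4 (0.22), so that small differences were not detectable.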
